A study of Homo sapiens with 6 samples.

Results

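Transcript levels 12 h after release from a replication block were compared between U2OS cells depleted of E2F7 and control cells. The comparison uses 2 of the 6 libraries of the series, 1 for each arm. U2OS is an established human osteosarcoma line. All groups had been held with hydroxyurea, which starves cells of deoxynucleotides, at 4 mM for 24 h and then returned to drug-free medium. Control cells carried a siRNA without a target (siNT) and depleted cells a siRNA against E2F7 (siE2F7). The labels place 0 h at the G1/S transition, 3 h in S phase and 12 h at the G2/M boundary. Nothing in them says that the times or arms came from repeated experiments, so each p-value given here rests on the spread between these libraries, which may be technical. That spread is the change of the knockdown ratio from time to time. It also holds any change over the cell cycle, and no replicate enters it.

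Levels are given as FPKM, which scales fragments to transcript length and library size, and their depth is unknown because the tables hold no counts. Of 12299 genes listed at 12 h, 8769 entered the comparison. These had a mean of at least 5 FPKM over the pair, were not small RNA entries and were at 0 in neither library. The rule left out 3468 genes under the mean, 205 small RNA entries and 76 genes listed at 0, groups that overlap. Just outside the filter lay ZNF789, at 4.60 FPKM in siNT and 5.40 FPKM in siE2F7. Just inside it lay PABPC4L, at 3.63 and 6.37 FPKM. A gene under 5 FPKM in 1 arm thus passed only if the other arm was higher, which favours large ratios among such genes. The knockdown ratio is log2((siE2F7 + 0.1)/(siNT + 0.1)), which understates the change of low genes. With 1 library per arm the 12 h ratios have no replicate and no p-value of their own.

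E2F7 is an atypical E2F transcription factor. It binds E2F sites without a DP partner and represses genes that the activator E2Fs switch on for DNA replication, and its own transcription is E2F-driven. Genes of mitosis follow another timetable: the MuvB complex, with B-MYB (the product of MYBL2) and FOXM1, activates them in G2 through a promoter element called the CHR.

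E2F7 itself (hg19, chr12:77415026-77459360) stood at 16.6 FPKM in siNT and 5.52 FPKM in siE2F7 at 12 h. The depleted library was thus 2.97-fold lower, with part of the transcript left. The log2 ratio was -1.57 at 12 h, -1.46 at 3 h and -1.09 at 0 h, and over the 3 times E2F7 fell by 1.37 ± 0.10 on the log2 scale (SE; limma with time as a block, adjusted p = 8.7e-05). The 12 h ratio did not pass the test of a difference from the other times (limma, adjusted p = 0.81). That test sets the 12 h ratio against the mean of the 0 h and 3 h ratios, and its error rests mostly on genes of like expression (33.8 prior against 1 residual degree of freedom).

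The 12 h libraries were checked against their G2/M label. Among 18 kinases, cyclins and phosphatases of mitotic entry, the median 12 h level over the 0 h level was 0.87 (log2) in siNT and 1.22 in siE2F7. Among 28 genes of origin licensing and firing it was -0.56 in siNT and -0.19 in siE2F7. Mitotic genes were thus higher and origin genes lower than at 0 h in both arms, as the label calls for. The 10 replication-dependent histones in the comparison, genes of S phase, were not lower than at 0 h: their median over 0 h was 1.41 in siNT and 0.26 in siE2F7. Over 3 h, the time labelled S phase, it was 0.52 in siNT and -0.06 in siE2F7. For 32 genes of the replication fork the median over 3 h was near 0 in both arms, at -0.07 and -0.06. No source used here says how the 3 tables were scaled to each other, so levels are compared across times only as description. Of 11 bone lineage markers 6 passed the filter, and SP7, COL1A2, BGLAP and IBSP were listed in none of the libraries. COL1A1 stood at 304 FPKM in siNT and 261 FPKM in siE2F7, and SPARC at 460 and 401 FPKM. RUNX2 was under the filter, at 4.60 and 4.36 FPKM. Of 7 blood cell markers 0 passed the filter, and LAPTM5 stood at 1.64 and 0.94 FPKM. FPKM summed to 374077 in siNT and 364310 in siE2F7 at 12 h, within the range of all 6 libraries (351305 to 375954). In bulk RNA, fewer cells of a cycle phase and less RNA per cell cannot be told apart.

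At 12 h, 84 genes (0.958%) were at least 2-fold higher in siE2F7 and 79 (0.901%) at least 2-fold lower. At 1.5-fold the counts were 337 higher (3.84%) and 398 lower (4.54%). The balance turned under other scalings, with 386 higher and 334 lower when both libraries were shifted to 1 median, and 377 and 342 after quantile normalization. The same filter gave 32 and 25 genes past 2-fold at 0 h, and 56 and 33 at 3 h. The spread of the ratios, as a SD from the median absolute deviation, was 0.27 (log2) at 12 h against 0.22 at 0 h and 0.23 at 3 h. The median ratio of all genes was -0.04 at 12 h. With genes cut into 5 equal classes of transcript GC content it went from 0.03 in the lowest class to -0.08 in the highest, and with 5 classes of length from -0.09 in the shortest to 0.01 in the longest.

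**Figure D1:**
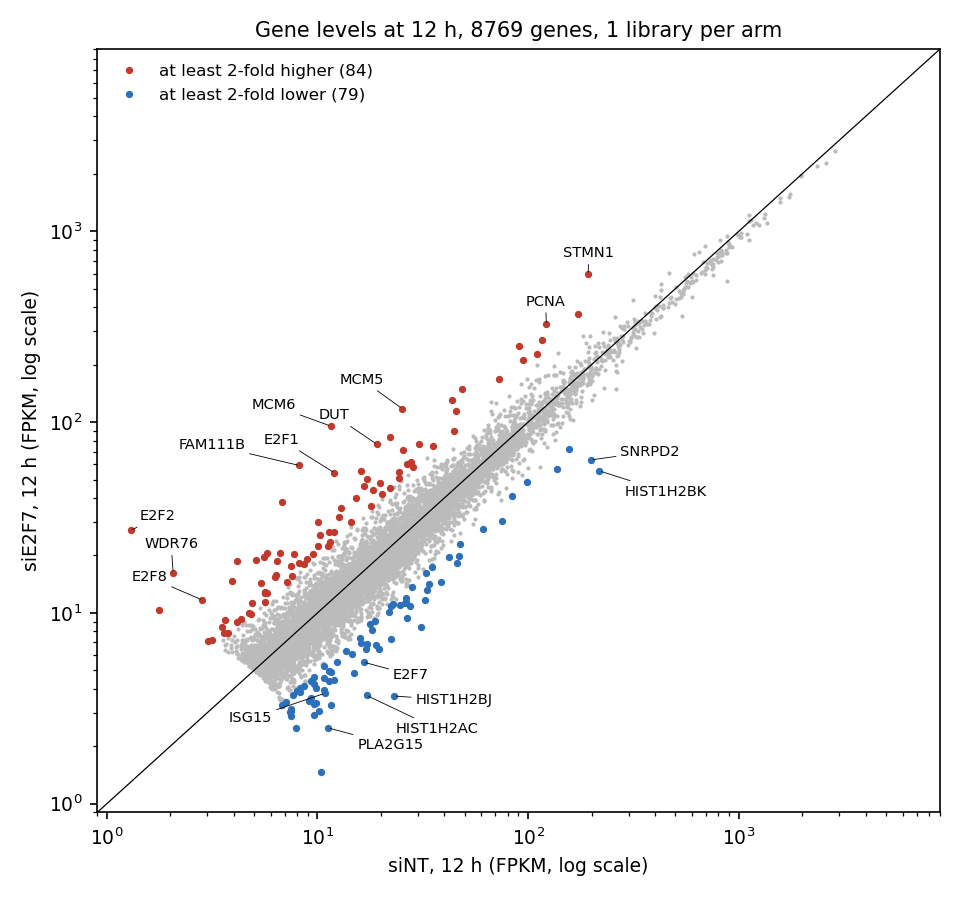
Level of each of 8769 genes in the siNT library (x axis, FPKM, log scale) and the siE2F7 library (y axis, FPKM, log scale) at 12 h; the line marks equal levels, red points the 84 genes at least 2-fold higher and blue points the 79 at least 2-fold lower in siE2F7. E2F2 lies farthest above the line, with MCM5, MCM6, E2F1 and E2F8 also above it and E2F7, HIST1H2BJ, HIST1H2AC and HIST1H2BK below it.

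Most of the large 12 h ratios had the same sign at the earlier times, which have libraries of their own. In a limma fit without the 12 h libraries, 801 of 11741 fitted genes rose (6.82%) and 847 fell (7.21%). Of the risers, 660 were in the 12 h comparison, and 638 of these (96.7%) were higher at 12 h as well, with a median 12 h ratio of 0.48. Of the 671 fallers in it, 631 (94.0%) were lower at 12 h, with a median of -0.49. Conversely, 80 of the 84 genes at least 2-fold higher at 12 h and 63 of the 79 lower passed in the same direction without the 12 h libraries. The medians of the higher genes were 0.75 (0 h), 0.98 (3 h) and 1.22 (12 h), those of the lower genes -0.77, -0.77 and -1.25; the 12 h medians are large by selection. With the 12 h libraries included, 952 genes rose over the 3 times (8.11%) and 1054 fell (8.98%). These shares, and the shares past 1.5-fold and 2-fold at 12 h given above, are the ones to set beside the group counts below.

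The promoters of the highest genes are shown because many hold an E2F motif. RefSeq (GRCh38.p14) gives a promoter, from 250 bases before to 50 after the start, for 7112 of the 8769 genes. The motif searched was TTTCCCGC or TTTGGCGC on either strand, and 4.15% of these promoters hold it, against 2.31% of all 27305 promoters of that length. It was in 17 of 68 promoters of genes at least 2-fold higher (25%) and in 3 of 62 of genes at least 2-fold lower (4.84%). Of the 20 highest ratios with a promoter 11 hold it, and of the 20 lowest 0. A match is a description of the sequence and not a bound site. Windows of 60 bases follow, written on each gene's strand, with the motif in capitals: E2F2 (chr1:23531242-23531301, minus strand), MCM6 (chr2:135876562-135876621, minus), ZNF367 (chr9:96418358-96418417, minus), E2F1 (chr20:33686372-33686431, minus), GINS2 (chr16:85688952-85689011, minus), MCM3 (chr6:52284883-52284942, minus) and PCNA (chr20:5126648-5126707, minus).
E2F2: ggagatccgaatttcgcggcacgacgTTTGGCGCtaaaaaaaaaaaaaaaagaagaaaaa
MCM6: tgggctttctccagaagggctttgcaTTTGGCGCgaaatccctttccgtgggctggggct
ZNF367: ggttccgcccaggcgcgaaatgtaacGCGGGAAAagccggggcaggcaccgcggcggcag
E2F1: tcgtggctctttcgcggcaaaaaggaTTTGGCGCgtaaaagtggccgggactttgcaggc
GINS2: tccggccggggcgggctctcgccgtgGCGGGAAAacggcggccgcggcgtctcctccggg
MCM3: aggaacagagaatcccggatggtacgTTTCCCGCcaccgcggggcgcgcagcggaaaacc
PCNA: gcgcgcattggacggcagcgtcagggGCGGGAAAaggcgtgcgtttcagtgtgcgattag

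The E2F family held the highest ratio of the comparison. E2F2, an activator, stood at 1.30 FPKM in siNT and 27.0 FPKM in siE2F7 at 12 h, 19.4-fold higher. Its siNT level was under 5 FPKM, so E2F2 passed the filter through siE2F7 alone and its fold rests on a low level. The depleted libraries were level across the times, at 26.3, 29.7 and 27.0 FPKM at 0, 3 and 12 h, and the control libraries stood at 5.04, 1.89 and 1.30 FPKM. E2F1, another activator, stood at 12.0 and 54.2 FPKM at 12 h, 4.47-fold higher. Its ratio was 1.14, 1.53 and 2.16 at 0, 3 and 12 h, and the 12 h ratio was above the mean of the other times by 0.83 ± 0.17 (SE; limma, adjusted p = 0.012). The same difference was 1.14 for E2F2 but did not pass (adjusted p = 0.092). E2F8, the other atypical E2F, stood at 2.84 and 11.7 FPKM, 4.01-fold higher, with a difference that did not pass (adjusted p = 0.46). It too passed the filter through siE2F7 alone. E2F3, an activator, was at 10.2 and 14.4 FPKM. The repressors E2F4 and E2F6, which bind with DP partners, had 12 h ratios of -0.15 and -0.27. Of 8 members of the E2F and DP list in the comparison 5 rose over the 3 times, E2F7 fell, and E2F4 and E2F6 did not pass. Under the filter, E2F5 was at 3.26 FPKM in siNT and 0.91 FPKM in siE2F7 at 12 h, and TFDP2 at 3.43 and 3.52 FPKM. With both included the median 12 h ratio of the list was 0.15, against 0.37 without them.

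None of the 11 pocket protein and MuvB genes reached 2-fold at 12 h, and 3 passed 1.5-fold. RBBP4, a histone-binding MuvB subunit, was at 14.4 FPKM in siNT and 28.1 FPKM in siE2F7, and shares its locus with another entry. MYBL2 was at 110 and 199 FPKM, 1.82-fold higher. RBL1, the pocket protein p107 and an E2F target, was at 9.23 and 16.7 FPKM. RB1, at 13.2 and 13.6 FPKM, and RBL2, at 10.5 and 9.66 FPKM, were near equal in both arms. Of 10 fitted genes 4 rose over the 3 times and 0 fell.

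Genes that load and fire replication origins were widely higher. Of 28 in the comparison, 13 were at least 1.5-fold and 9 at least 2-fold higher at 12 h, against 3.84% and 0.958% of all genes. Lower past 1.5-fold were 0, and the median ratio was 0.52 against 0.38 at 0 h and 0.35 at 3 h. Over the 3 times 18 rose and 1, GMNN, fell, against 8.11% and 8.98% of all fitted genes. The MCM genes encode the ring of the replicative helicase. MCM6 stood at 11.5 FPKM in siNT and 95.4 FPKM in siE2F7 at 12 h, 8.21-fold higher. Its siNT level was 32.9 FPKM at 0 h and 22.4 FPKM at 3 h, while the siE2F7 level was 110 and 91.5 FPKM: the control library of 12 h was the lowest, and all 3 depleted libraries lay above all 3 control ones. MCM6 had a 12 h ratio above the mean of the other times by 1.15 ± 0.17 (SE; limma, adjusted p = 0.0001).

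MCM5 stood at 25.2 and 118 FPKM at 12 h, 4.65-fold higher, MCM3 at 48.6 and 150 FPKM, and MCM2 at 25.4 and 71.3 FPKM. Their 12 h ratios (2.22, 1.62 and 1.49) did not pass the test of a difference from the other times (adjusted p = 0.16, 0.14 and 0.67). GINS2, a subunit of the complex that joins the MCM ring to CDC45, stood at 22.1 and 83.4 FPKM, 3.75-fold higher. GMNN, geminin, which blocks relicensing by holding CDT1, went the other way, at 28.0 FPKM in siNT and 19.2 FPKM in siE2F7. GMNN fell over the 3 times by 0.55 ± 0.09 on the log2 scale (SE; limma, adjusted p = 0.0036), so that within the licensing group the inhibitor was low where the helicase genes were high.

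At the fork itself, 14 of 32 genes were at least 1.5-fold higher at 12 h and 1 was lower, with a median ratio of 0.46. PCNA, the sliding clamp, stood at 122 FPKM in siNT and 325 FPKM in siE2F7, 2.66-fold higher; it overlaps an antisense entry whose reads may have been split from it. TIPIN, which protects stalled forks, stood at 12.7 and 31.9 FPKM. LIG1, the ligase of Okazaki fragments, stood at 23.1 and 45.7 FPKM and DSCC1, of an alternative clamp loader, at 27.0 and 52.8 FPKM. The exception was POLD4, the small subunit of polymerase delta, at 14.9 and 8.37 FPKM, which shares its locus with another entry. Of the 32, 21 rose over the 3 times and 1, POLD4, fell.

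The nucleotide supply genes were divided. Of 18, 7 were at least 1.5-fold higher and 0 lower, yet the median ratio was only 0.08. DUT, which removes dUTP before it enters DNA, stood at 19.2 FPKM in siNT and 76.5 FPKM in siE2F7, 3.98-fold higher. DUT had a 12 h ratio above the other times by 0.80 ± 0.18 (SE; limma, adjusted p = 0.020). RRM2, the regulated subunit of ribonucleotide reductase, stood at 116 and 270 FPKM, TYMS, thymidylate synthase, at 94.2 and 211 FPKM, and TK1, thymidine kinase, at 111 and 227 FPKM. At the low end IMPDH2, of guanine nucleotide synthesis, stood at 166 and 143 FPKM and UMPS, of pyrimidine synthesis, at 12.5 and 9.17 FPKM. UMPS fell over the 3 times (limma, adjusted p = 0.024).

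Among 17 G1/S cyclins and CDK inhibitors, 6 were at least 1.5-fold higher and 0 lower. CCNE1, cyclin E1, stood at 24.4 FPKM in siNT and 51.1 FPKM in siE2F7 at 12 h. CCNE2, cyclin E2, stood at 3.91 and 14.7 FPKM and shares its locus with another entry. Both were far above this at 0 h in either arm (92.5 and 170 FPKM for CCNE1), so at 12 h the depleted cells were high for the time but under their own earlier level. CDKN2C, the CDK4/6 inhibitor p18, did not have this form: it stood at 16.1 and 55.3 FPKM at 12 h, and its siE2F7 level was 41.2 FPKM at 0 h and 35.5 FPKM at 3 h. CDKN2C had a 12 h ratio above the other times by 0.71 ± 0.18 (SE; limma, adjusted p = 0.046). That call ended with a pseudocount of 1 FPKM (adjusted p = 0.071), in a fit of genes of at least 5 FPKM alone (0.052) and without the variance trend (0.46). CCND1, cyclin D1, stood at 106 and 77.9 FPKM and did not pass over the 3 times (limma, adjusted p = 0.087).

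Repair and checkpoint genes were higher by smaller factors. Of 25 homologous recombination genes, 9 were at least 1.5-fold higher and 0 lower, with a median ratio of 0.31. BARD1, the partner of BRCA1, stood at 5.64 FPKM in siNT and 12.7 FPKM in siE2F7, 2.23-fold higher. Of 14 Fanconi anaemia pathway genes 4 passed 1.5-fold, led by UHRF1 at 24.3 and 55.1 FPKM. Of 15 checkpoint genes 2 did: PKMYT1, an inhibitory CDK1 kinase with a shared locus, at 19.9 and 48.0 FPKM, and CHEK1 at 12.6 and 22.9 FPKM. The sensor kinases ATM and ATR were not higher, with 12 h ratios of -0.17 and -0.27. DNA methylation and Polycomb genes formed a small group of 7 with a median of 0.69, which was 0.073 over 9 genes when a mean of at least 1 FPKM sufficed. Within the 7, DNMT3B stood at 6.44 and 18.7 FPKM, EZH2 at 11.9 and 26.7 FPKM and HELLS at 5.78 and 12.7 FPKM. Those 3 and DNMT1 rose over the 3 times (limma, adjusted p = 0.0015, 0.0013, 0.00078 and 0.0014), and EED, SUZ12 and TET3 did not pass.

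Mitotic genes, which peak at this time, were slightly but widely higher. All 18 mitotic entry genes, all 12 mitotic kinesins, all 18 spindle and cytokinesis genes and 38 of 39 centromere and kinetochore genes had a positive ratio at 12 h, against 3874 of all 8769. The medians were 0.31, 0.46, 0.49 and 0.39 at 12 h. At 0 h they were -0.06, 0.08, 0.15 and 0.14, and at 3 h 0.15, 0.14, 0.28 and 0.27. The 12 h ratio was the highest of the 3 times in 17 of 18, 12 of 12, 18 of 18 and 27 of 39 of these genes, against 2553 of the 8769 genes. For single genes the step was small, and SPC24 alone among them passed the test of a difference (35 of 11741 genes passed it upward, 0.298%, and 37 downward, 0.315%).

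PLK1, the Polo kinase that drives mitotic entry, stood at 81.6 FPKM in siNT and 109 FPKM in siE2F7 at 12 h, and was lower in siE2F7 at both earlier times (23.9 against 19.6 FPKM at 0 h, 26.8 against 23.5 FPKM at 3 h). The difference of its 12 h ratio, 0.65, did not pass (limma, adjusted p = 0.055). AURKA, aurora kinase A, was near equal at 12 h, at 115 and 119 FPKM, after ratios of -0.31 and -0.43 at 0 and 3 h. KIF14, a kinesin of the midbody, stood at 16.3 and 24.3 FPKM and KIF11, which pushes spindle poles apart, at 40.7 and 60.7 FPKM. MASTL, the kinase that holds down PP2A in mitosis, was the 1 mitotic entry gene past 2-fold, at 20.3 and 41.9 FPKM, and it was also higher at 0 h (33.7 and 48.2 FPKM). Over the 3 times 4 of the 18 entry genes, 6 of the 12 kinesins, 9 of the 18 spindle genes and 18 of the 39 kinetochore genes rose. In that fit 0 fell, and of all fitted genes 8.11% rose and 8.98% fell. It includes the 12 h libraries. Without them 3, 2, 8 and 13 rose and 1 entry gene fell, against 6.82% and 7.21% of all fitted genes.

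SPC24, part of the NDC80 complex that holds microtubules at the kinetochore, stood at 7.77 FPKM in siNT and 20.3 FPKM in siE2F7 at 12 h. Earlier it was at 9.11 FPKM (0 h) and 6.41 FPKM (3 h) in siNT and at 12.6 and 7.50 FPKM in siE2F7, so the 12 h siE2F7 library was the highest of the 6. SPC24 had a 12 h ratio above the other times by 1.02 ± 0.20 (SE; limma, adjusted p = 0.0064). Its partner SPC25 stood at 66.7 and 114 FPKM, with a difference that did not pass (adjusted p = 0.72). CIT, a kinase of the cleavage furrow, stood at 10.3 and 25.7 FPKM, NUSAP1, a spindle protein, at 66.7 and 128 FPKM, and MKI67, the proliferation marker Ki-67, at 44.0 and 72.6 FPKM. These 3 rose over the 3 times (limma, adjusted p = 0.00035, 0.0023 and 0.0012). Cohesin and condensin genes were also all higher at 12 h, 21 of 21, with a median of 0.42, and 16 rose over the 3 times. STAG2, a cohesin subunit, stood at 9.50 and 18.3 FPKM, with ratios of 0.91, 0.87 and 0.94 at 0, 3 and 12 h.

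The promoters of the mitotic genes held another motif. TTTGAA, the core of the CHR, was searched on either strand. It was in 9 of 14 mitotic entry promoters (64.3%), 8 of 12 kinesin promoters (66.7%) and 13 of 17 spindle promoters (76.5%). Among centromere and kinetochore promoters it was in 15 of 31 (48.4%). The shares were 9.21% of promoters in the comparison and 15.4% of all. The E2F motif above was in 0, 1, 1 and 3 promoters of these 4 lists. The last is 9.68%, against 4.15% of promoters in the comparison. In the licensing group the shares were reversed, with the E2F motif in 10 of 24 promoters and TTTGAA in 1. Among genes at least 2-fold higher at 12 h, 6 of 68 held TTTGAA (8.82%). The windows of PLK1 (chr16:23678833-23678892, plus strand), KIF23 (chr15:69414267-69414326, plus), CCNB2 (chr15:59105090-59105149, plus), MKI67 (chr10:128126438-128126497, minus) and NUSAP1 (chr15:41332867-41332926, plus) are shown to set beside the E2F motif windows, with TTTGAA in capitals.
PLK1: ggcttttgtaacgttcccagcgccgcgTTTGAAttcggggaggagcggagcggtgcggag
KIF23: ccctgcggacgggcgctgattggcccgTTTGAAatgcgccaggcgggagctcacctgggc
CCNB2: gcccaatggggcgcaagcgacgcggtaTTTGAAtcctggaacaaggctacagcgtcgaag
MKI67: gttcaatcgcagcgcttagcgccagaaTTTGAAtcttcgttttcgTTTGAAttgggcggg
NUSAP1: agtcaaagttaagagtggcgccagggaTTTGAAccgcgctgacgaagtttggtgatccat

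**Figure D2:**
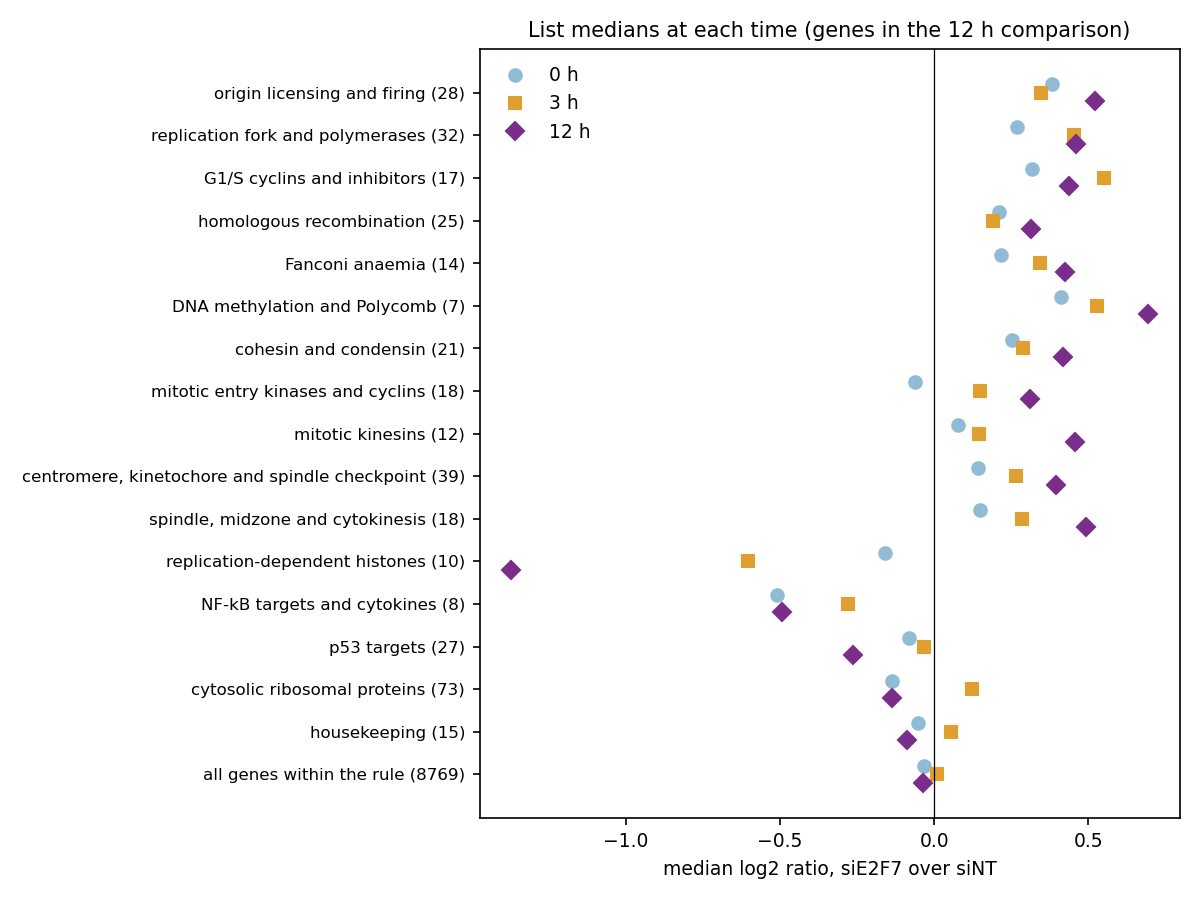
Median log2 ratio of siE2F7 over siNT (x axis) for 16 gene lists and for all 8769 genes, at 0 h (circles), 3 h (squares) and 12 h (diamonds); the number of genes is in parentheses. The 4 mitotic lists move right from 0 h to 12 h, to medians of 0.31 to 0.49, and the replication-dependent histones move left, to -1.37.

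Replication-dependent histone genes went the other way, and at 12 h far more than before. These genes supply the histones of S phase, and most of their transcripts end in a stem-loop and not in a poly(A) tail, so libraries that select poly(A) measure a small part of them; the selection used is not given in the sources used here. Only 10 of the 65 genes of the list passed the filter. All 10 were at least 1.5-fold lower at 12 h and 7 at least 2-fold lower, against 4.54% and 0.901% of all genes. The median ratio was -1.37, against -0.16 at 0 h and -0.61 at 3 h. HIST1H2BJ, HIST1H2AC, HIST1H2BD, HIST1H2BC and HIST1H2BE were under 5 FPKM in siE2F7 at 12 h. They passed the filter through siNT alone, which favours low ratios. Of the 10, HIST2H2AA3 and HIST2H2AA4 are near-identical copies with the same values, so they are not independent. Another 10 were listed at 12 h under the filter, and 9 of them were lower, among them HIST2H4A and HIST2H4B, which also have the same values. The 9 also include HIST1H2BL, at 5.94 FPKM in siNT and 1.49 FPKM in siE2F7, and HIST2H2BE, at 5.86 and 2.58 FPKM. The exception was HIST1H2AB, at 0.85 and 1.78 FPKM.

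HIST1H2BK, an H2B gene and the most abundant of them, stood at 51.8, 122 and 218 FPKM at 0, 3 and 12 h in siNT and at 36.2, 61.8 and 55.5 FPKM in siE2F7. The control level was highest at 12 h while the depleted level stayed between 36.2 and 61.8 FPKM. The 12 h ratio, -1.97, was below the mean of the other times by 1.22 ± 0.18 on the log2 scale (SE; limma, adjusted p = 0.00013). HIST1H2BJ, another H2B gene, stood at 5.19, 16.6 and 23.2 FPKM in siNT and at 4.78, 11.2 and 3.67 FPKM in siE2F7. It was near equal at first and 6.17-fold lower in siE2F7 at 12 h, with a difference of -2.28 ± 0.22 (SE; limma, adjusted p = 7.2e-09). HIST1H2AC, an H2A gene, stood at 1.57, 12.4 and 17.1 FPKM in siNT and at 1.89, 7.87 and 3.69 FPKM in siE2F7. Its difference was -1.99 ± 0.28 (SE; adjusted p = 4.6e-05).

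HIST1H2BD, at 14.8 and 4.83 FPKM at 12 h, also passed the test of a difference (-1.07, adjusted p = 0.029). The remaining 6 did not pass it, among them HIST1H2BC at 9.80 and 3.36 FPKM and HIST1H2BE at 11.6 and 4.88 FPKM. Over the 3 times 4 of the 10 fell: HIST1H2BK, HIST1H2BC, HIST1H2BD and HIST1H2BE. HIST1H2BJ and HIST1H2AC did not pass over the 3 times (limma, adjusted p = 0.066 and 0.12). In that fit the change of their ratios between the times enters the error (SE 0.36 and 0.34). Of 9 replacement histones and H1 variants, made through the whole cycle from poly(A) transcripts, 7 had a positive ratio at 12 h, and over the 3 times 4 rose and 1, H1F0, fell. H3F3A stood at 173 and 367 FPKM at 12 h, H2AFZ at 616 and 758 FPKM, H3F3B at 265 and 261 FPKM, and H1F0 at 535 and 361 FPKM. SLBP, which binds the stem-loop, stood at 21.0 and 32.6 FPKM.

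**Figure D3:**
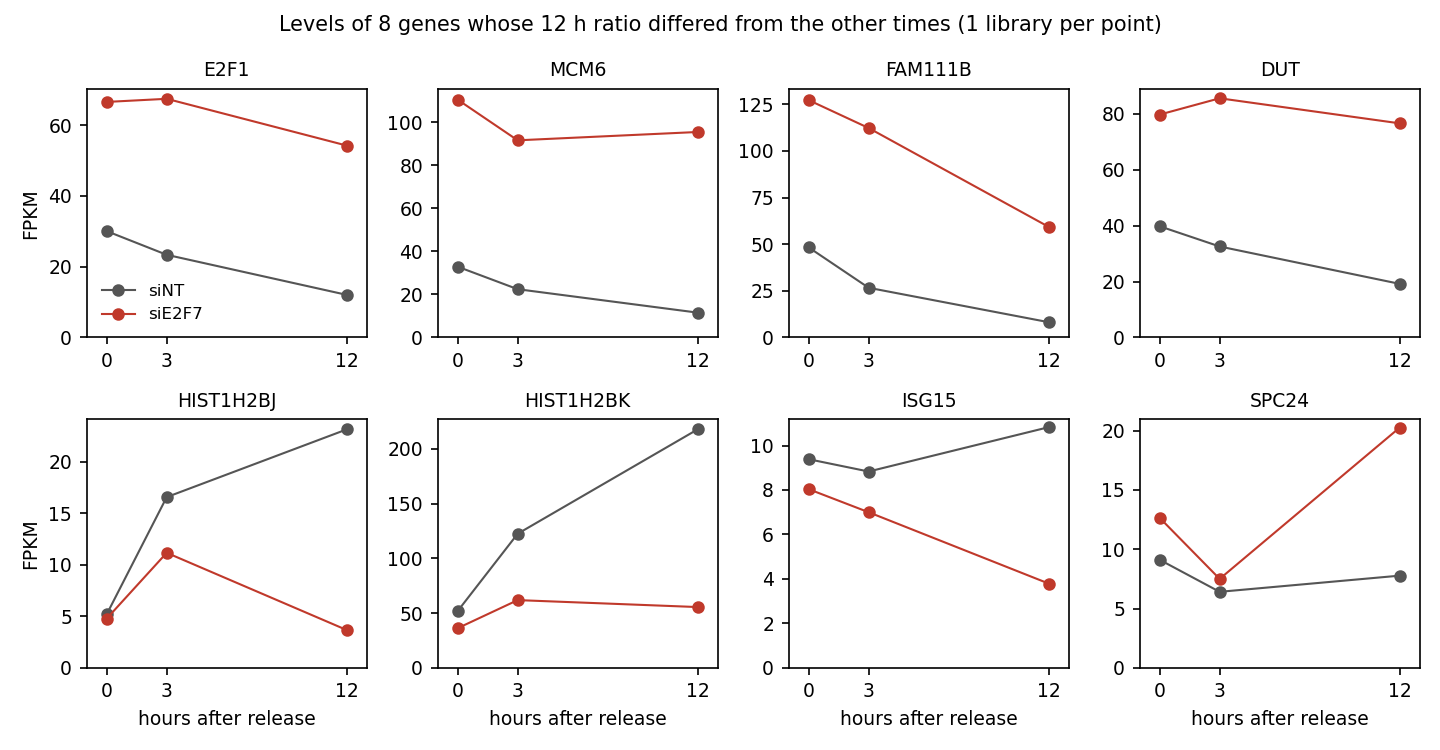
Levels (y axis, FPKM, from 0) of 8 genes at 0, 3 and 12 h after release (x axis) in siNT (grey) and siE2F7 (red), 1 library per point. For E2F1, MCM6, FAM111B and DUT the siNT level is lowest at 12 h; for HIST1H2BJ and HIST1H2BK it is highest at 12 h, at 23.2 and 218 FPKM, while the siE2F7 level is not. All 8 were picked from genes that passed the test of a difference, which favours such levels at 12 h.

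Inflammatory genes were lower at 12 h and at the earlier times, and p53-linked genes had their lowest median at 12 h. Of 8 NF-kB targets and cytokines, 0 had a positive ratio and 4 were at least 1.5-fold lower, with medians of -0.51, -0.28 and -0.49 at 0, 3 and 12 h. BIRC3, an inhibitor of apoptosis, stood at 11.4 FPKM in siNT and 4.94 FPKM in siE2F7, with ratios of -1.18, -1.25 and -1.19 at the 3 times. CCL2, a chemokine, stood at 9.11 and 3.45 FPKM. Of the 8, 5 fell over the 3 times. Of 27 p53 targets, 5 (18.5%) were at least 1.5-fold lower and 0 higher at 12 h, against 4.54% and 3.84% of all genes. Their medians were -0.08, -0.03 and -0.26 at 0, 3 and 12 h, and the last was -0.12 without genes that share a locus. Of the 27, 0 passed the test of a difference from the other times. In the fit without the 12 h libraries 5 fell and 3 rose. TNFRSF10B, a death receptor with a shared locus, stood at 31.6 and 17.0 FPKM and TP53I3 at 44.6 and 25.7 FPKM, while CDKN1A, the CDK inhibitor p21 and the best known p53 target, stood at 92.7 and 125 FPKM. Over the 3 times 9 of the 27 fell and 3, CDKN1A among them, rose, against 8.98% and 8.11% of all fitted genes.

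Of 8 interferon-induced genes in the comparison 1 was lower past 1.5-fold: ISG15, a ubiquitin-like modifier. In siNT it stood at 9.38, 8.83 and 10.8 FPKM at 0, 3 and 12 h, and in siE2F7 at 8.04, 7.0 and 3.79 FPKM, so the 12 h siE2F7 library was the lowest of the 6. Its 12 h ratio was below the other times by 1.21 ± 0.22 on the log2 scale (SE; limma, adjusted p = 0.0017). IFI6, another interferon-induced gene, stood at 14.4 and 12.5 FPKM at 12 h and did not pass this test (adjusted p = 0.96). Ribosomal protein and housekeeping genes lay nearer the median of all genes: 0 of 73 ribosomal protein genes passed 1.5-fold at 12 h (median -0.14), and 0 of 15 housekeeping genes did (median -0.09). The ribosomal protein genes were still mostly on 1 side, with 71 of 73 negative at 12 h, against 4895 of all 8769 genes. Their median was -0.14 at 0 h and 0.12 at 3 h.

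Outside the lists, several of the highest genes also had their lowest siNT level at 12 h. Ranking by the 12 h ratio favours a low siNT level at that time, so this form is in part a result of selection. WDR76, a chromatin-associated repeat protein, stood at 7.03, 5.76 and 2.07 FPKM at 0, 3 and 12 h in siNT and at 19.6, 24.4 and 16.2 FPKM in siE2F7, and its 12 h ratio of 2.91 was above the other times by 1.15 ± 0.22 (SE; limma, adjusted p = 0.0052, or 0.058 with a pseudocount of 1 FPKM). WDR76 passed the filter through its siE2F7 level alone. FAM111B, a serine protease, stood at 48.3, 26.6 and 8.19 FPKM in siNT and at 127, 112 and 59.3 FPKM in siE2F7. Both arms of FAM111B were lowest at 12 h, the control by the larger factor, and the difference was 1.11 ± 0.19 (SE; adjusted p = 0.0015). Its paralog FAM111A, at 26.5 and 60.5 FPKM at 12 h, passed too (0.71, adjusted p = 0.029). ZNF367, a zinc finger protein, stood at 6.79 and 38.2 FPKM with a difference that did not pass (adjusted p = 0.10). SYNE2, a giant protein of the nuclear envelope, stood at 5.11 and 18.9 FPKM and had a difference of 0.93 ± 0.19 (SE; adjusted p = 0.0083). STMN1, of the tubulin and stathmin list, which destabilizes microtubules, was the most abundant gene past 2-fold, at 193 and 597 FPKM.

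Some of the lowest genes outside the histones were about as low at the earlier times. PLA2G15, a lysosomal phospholipase, stood at 11.2 FPKM in siNT and 2.50 FPKM in siE2F7 at 12 h, with ratios of -1.83, -1.64 and -2.12 at 0, 3 and 12 h. SNRPD2, a core protein of spliceosomal snRNPs, stood at 199 and 63.4 FPKM, and EPDR1, an ependymin-related protein, at 22.4 and 7.32 FPKM. ANAPC13, a small subunit of the anaphase-promoting complex with a shared locus, stood at 31.1 and 8.45 FPKM. None of these 4 passed the test of a difference from the other times (limma, adjusted p = 0.78, 0.80, 0.72 and 0.97), and all 4 fell over the 3 times.

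In the 12 h comparison 24 genes passed the test of a difference upward and 29 downward, of which 7 and 10 share a locus with another entry. Without the variance trend only 1 of all fitted genes passed upward and 5 downward; of those named here HIST1H2BJ, C18orf32, RPL17-C18ORF32 and NME1-NME2 were among them, and the other calls of a difference ended. Among the others, 2 with ratios near 0 earlier were MDFI, an inhibitor of myogenic factors, at 22.4 and 10.9 FPKM at 12 h, and HOXC9, a homeobox gene, at 9.61 and 4.62 FPKM. RRAS, a small GTPase, stood at 35.0 and 17.4 FPKM. EGR1, an immediate early transcription factor, changed sign: it stood at 18.9, 12.7 and 10.8 FPKM at 0, 3 and 12 h in siNT and at 16.6, 8.49 and 18 FPKM in siE2F7, with a difference of 1.11 ± 0.19 (SE; limma, adjusted p = 0.0013). In all, 10 of the 24 and 10 of the 29 had a 12 h ratio of the opposite sign to both earlier times.

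Some of the most extreme differences lay in entries whose reads cannot be assigned with certainty. C18orf32 stood at 10.4 FPKM in siNT and 1.46 FPKM in siE2F7 at 12 h, the lowest ratio of the comparison at -2.75, while the read-through entry RPL17-C18ORF32, which overlaps it, stood at 5.34 and 10.7 FPKM. SMN1 stood at 39.2 and 22.7 FPKM and its near-identical copy SMN2 at 5.75 and 20.7 FPKM. In both pairs 1 entry was low where the other was high, and no change of the gene itself is read from them. NME1-NME2, a read-through entry, stood at 19.7 and 6.44 FPKM, while NME1 was at 259 and 234 FPKM and NME2 at 473 and 449 FPKM.

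**Figure D4:**
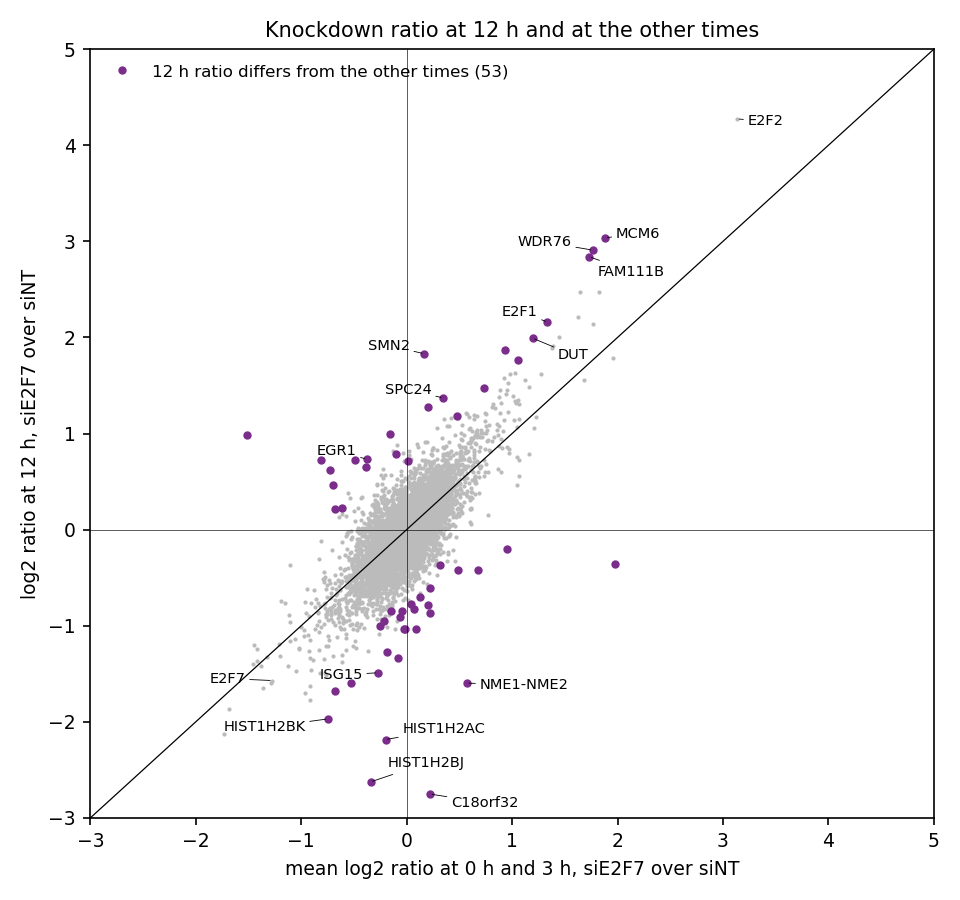
Log2 ratio of siE2F7 over siNT at 12 h (y axis) against the mean of the 0 h and 3 h ratios (x axis) for the genes of the 12 h comparison; the diagonal marks equal ratios and purple points the 53 genes that passed the test of a difference. MCM6, WDR76, FAM111B and E2F1 lie above the diagonal among genes already high, and HIST1H2BJ, HIST1H2AC and HIST1H2BK lie below it.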

How the data were processed

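RNA of 6 U2OS libraries was extracted with TRIzol and RNeasy columns and prepared with an Illumina TruSeq RNA kit, per the labels' protocols. The deposited values are FPKM per gene, made by the authors. CASAVA 1.8 and hg19, also called GRCh37, appear in the submitters' processing notes. The aligner, the annotation and any filters were not given in the sources used here.

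Libraries were grouped by the labels and joined on the gene identifier of the tables. Of the 8769 genes compared, 7763 carry a current symbol, 852 an older one and 154 neither; 6 hold a spreadsheet date in place of a symbol and 1457 share a locus with another entry. Ratios used a pseudocount of 0.1 FPKM. Limma 3.58.1 in R 4.3.3 was fitted to log2(FPKM + 0.1) of 11741 genes listed above 0 in all 6 libraries, without small RNA entries, with a variance trend and Benjamini-Hochberg adjustment at 0.05 over all of them. One fit tested the arm with time as a block (2 residual and 7.59 prior degrees of freedom), 1 repeated it without 12 h, and 1 tested the 12 h ratio against the mean of the other 2 ratios. The fits were tested on simulated data with independent noise in each library. Apart from the genes altered on purpose, the simulation held no change of the knockdown ratio between times. It thus cannot show how the fits treat such change. Promoter sequences are from RefSeq, GRCh38.p14; GC content and length are those of the longest GENCODE v29 transcript, for 97.4% of the genes. Start positions are counted from 1.

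Members and gene lists were chosen with earlier results of these data known. The rule for naming genes took E2F7, E2F8, E2F1 and E2F2, up to 5 highest and 5 lowest ratios per list, the 20 highest and 20 lowest ratios in all, and the 15 highest and 15 lowest differences of the 12 h ratio; the text shortens these, and some results that the rule names are not reported here. ATM, ATR, ZNF789, PABPC4L, NME1 and NME2 and members named under the filter were added for context. Alternatives were other pseudocounts, filters, scalings and variance priors.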

Additional observations from a re-analysis of the deposited data

Results flagged for a closer look

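The 12 h ratio of 15 named genes of the cell cycle, histone and related groups differed from the mean of the 0 h and 3 h ratios by the limma test across times (Benjamini-Hochberg at 0.05), each with 1 library per arm and time. Differences above the other times were 1.15 for MCM6, 1.15 for WDR76, 1.11 for FAM111B, 1.02 for SPC24, 0.93 for SYNE2, 0.83 for E2F1, 0.80 for DUT, 0.74 for TMSB15A, 0.71 for CDKN2C and 0.71 for FAM111A (log2). Differences below them were -2.28 for HIST1H2BJ, -1.99 for HIST1H2AC, -1.22 for HIST1H2BK, -1.21 for ISG15 and -1.07 for HIST1H2BD.

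Other genes that differed in the same test were EGR1 (1.11), SMOC1 (1.15), PGM2L1 (1.08), SAPCD2 (0.89) and TRIM6 (0.83, shared locus) above the other times. Below them were SLC7A5P1 (-1.25), HOXC9 (-1.13), MACROD1 (-1.10), NMB (-1.09), MDFI (-1.0) and RRAS (-0.75). SLC7A5P1 is a pseudogene of SLC7A5, an amino acid transporter at 157 FPKM in siNT and 72.3 FPKM in siE2F7 at 12 h, and reads of the pair may have been split. Entries that overlap or copy another also differed: RPL17-C18ORF32 (2.50), SMN2 (1.67), C18orf32 (-2.97), NBL1 (-2.33), NME1-NME2 (-2.17) and SMN1 (-0.99).

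RPL21, a ribosomal protein gene outside the comparison, was listed at 0 in the siNT library of 12 h, where the siE2F7 library had 65.0 FPKM. A listed 0 of a gene that every cell uses can be a failed estimate.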

How the results depend on the processing

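The fit over the 3 times pairs the arms by time; no pairing by replicate was possible because each group has 1 library. Counts moved with the filter. With a mean of at least 1 FPKM, with at least 20 FPKM and with no filter, 161, 39 and 161 genes were at least 2-fold higher and 194, 19 and 203 lower, and 601, 127 and 601 were at least 1.5-fold higher and 799, 112 and 808 lower. The same rule gave 182 genes at least 1.5-fold higher at 0 h, 219 and 191 lower at 0 and 3 h, 32 at least 2-fold higher at 0 h, and 25 and 33 lower at 0 and 3 h; this setting was added after seeing the data. Under the filter at 1 FPKM the medians were 0.15 for E2F factors, 0.11 for mismatch repair, 0.073 for DNA methylation and Polycomb, and -0.22 for osteoblast markers.

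The test of a difference from the other times called 1 gene higher and 5 lower without the variance trend, 61 and 78 with a robust prior, 78 and 59 after quantile normalization, 71 and 62 with each time shifted to a median of 0, and 21 higher among genes of at least 5 FPKM. Without the trend the adjusted p was 0.18 for MCM6, 0.36 for E2F1, 0.20 for HIST1H2BK and 0.037 for HIST1H2BJ. Over the 3 times 572 genes rose and 688 fell without the trend. NME1-NME2 had 0.57 in that fit without 12 h, the opposite sign. Other settings kept 119 of 123 list medians within the spread of a ratio (0.16). Depth is unknown, so counting error could not be given; each 12 h ratio rests on 2 libraries.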

Other observations

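Groups that the text above leaves out were mostly near the median of all genes at 12 h. Some lay above it: the median was 0.40 for 5 mismatch repair genes and 0.28 for 15 centriole and centrosome genes. For 13 genes of histone chaperones and histone mRNA processing it was 0.30. Of 23 collagen, laminin and integrin genes 4 (17.4%) were at least 1.5-fold lower and 0 higher, against 4.54% and 3.84% of all genes. Their median ratio was -0.22 at 12 h, -0.07 at 0 h and -0.15 at 3 h. Over the 3 times 4 fell (limma with time as a block), against 8.98% of all fitted genes. Of 16 heat shock proteins and chaperones 3 were at least 1.5-fold lower and 0 higher, and 14 had their lowest ratio at 12 h, as did 3316 of all 8769 genes. Of 34 oxidative phosphorylation genes 31 had a negative ratio, against 4895 of all 8769 genes, and 1 was lower past 1.5-fold (median -0.10). Of 25 proteasome genes 19 had a negative ratio and 1 was lower past 1.5-fold (median -0.05). Of 19 splicing factor genes 0 passed in either direction (median 0.06). Sterol synthesis genes had 0 of 21 past 1.5-fold, 20 with a negative ratio and a median of -0.15.

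Keratins 8 and 18, which pair in simple epithelial filaments and also occur in sarcoma lines, were both lower: KRT8 stood at 90.6 FPKM in siNT and 60.8 FPKM in siE2F7 at 12 h, and KRT18 at 206 and 138 FPKM. The entries carry the same locus, so they may not be independent. Of epithelial markers under the filter, EPCAM stood at 2.33 FPKM in siNT and 3.27 FPKM in siE2F7 at 12 h, and CLDN4 at 3.31 and 2.94 FPKM. KRT8 and KRT18 both fell over the 3 times (limma, adjusted p = 0.011 and 0.026). TNFRSF11B, osteoprotegerin, stood at 22.3 and 11.8 FPKM and fell as well (adjusted p = 0.012), while ALPL, at 6.76 and 4.61 FPKM, fell with an adjusted p of 0.031 and VIM, at 886 and 883 FPKM, did not pass (adjusted p = 0.92).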
